A study of Mus musculus with 170 samples.

Results

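Endothelial cells of the young brain were compared with endothelial cells of the young kidney, as brain minus kidney, across all genes of one RNA sequencing count table. The comparison used every young library titled brain endothelial (3, numbered 1, 3 and 4) and every young library titled kidney endothelial (4, numbered 1 to 4), which is 7 of the 170 libraries of the series. All 7 came from healthy mice of C57/Bl6 background aged 2 months. Cells were purified by flow cytometry, and each library held the tissue of 5 animals pooled before sorting. The sources used here name neither the markers used for sorting nor the sex of the animals. The p-values measure the spread between pools. The same tissues from mice aged 22 to 24 months (4 brain and 3 kidney libraries) served only to test whether the difference itself changed with age.

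Capillaries of the brain form the blood-brain barrier: their endothelial cells are sealed by tight junctions, carry out little vesicular traffic, and move glucose, amino acids and hormones through dedicated carriers. Wnt ligands from neural cells, acting through beta-catenin, are known to keep this state. Kidney endothelium is a mixture of fenestrated glomerular and peritubular capillaries, arterioles and the vasa recta of the medulla, and it filters plasma and takes back water and solutes. The comparison asks which genes set these beds apart in young animals.

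Total counts ran from 2240391 to 2884587 in the brain libraries and from 1109216 to 2552054 in the kidney libraries. Spearman correlations between libraries were 0.933 to 0.963 within a tissue and 0.757 to 0.779 between tissues. The nuclear RNA Malat1 took 1.47% to 1.77% of the counts in brain and 6.69% to 9.08% in kidney. Kidney replicate 1 held 105 counts of the chromosome Y genes Ddx3y, Eif2s3y and Kdm5d, against 0 to 2 in the other 6 libraries. By these counts male RNA was plain in that library alone, so the kidney libraries were not alike in sex. Sex was not part of the model.

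Levels are CPM, counts scaled to a common library size. Pecam1, an adhesion molecule of endothelial contacts that marks the lineage, was at 447, 382 and 353 CPM in brain replicates 1, 3 and 4, and at 626, 754, 606 and 742 CPM in kidney replicates 1 to 4. Cdh5, the cadherin of endothelial junctions, was at 605, 550 and 540 CPM in brain and at 672, 731, 723 and 920 CPM in kidney. Both markers were present in all 7 libraries, and for both every kidney library lay above every brain library. The log2 fold change, brain minus kidney with its standard error, was -0.79 ± 0.16 for Pecam1 (adjusted p = 0.00104) and -0.43 ± 0.16 for Cdh5 (adjusted p = 0.0385), a call that was lost in 7 alternatives, with adjusted p up to 0.222. On a scale of total counts alone, young kidney tubular cells held Pecam1 at 4.23 CPM and young neurons at 5.52 CPM, and young lymph node endothelial cells held it at 1088 CPM.

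Markers of other cells were present as well, and they moved with tissue. The 12 endothelial markers summed to 8692 to 9930 CPM in brain and 8225 to 8959 CPM in kidney. The 10 pericyte markers, among them the receptor Pdgfrb, were all higher in brain and summed to 3439 to 7386 CPM there against 190 to 487 CPM in kidney. Erythroid markers summed to 4744 to 15932 CPM in brain and 268 to 795 CPM in kidney, neutrophil markers to 116 to 130 against 1.51 to 3.51 CPM, and B cell markers to 195 to 235 against 2.06 to 19.6 CPM. Conversely, markers of the loop of Henle and distal tubule summed to 453 to 752 CPM in kidney and 9.29 to 13.96 CPM in brain, and those of the collecting duct to 217 to 653 against 14.2 to 21.5 CPM. The 12 proximal tubule markers summed to 748 to 969 CPM in brain and 387 to 769 CPM in kidney, and nearly all of the brain sum was Gatm, an enzyme of creatine synthesis, at 739, 961 and 784 CPM. Of the 9 tested, Gatm was higher in brain (2.29 ± 0.20) and the other 8 were higher in kidney. The tubular markers Slc5a2, Kap, Slc27a2, Pck1, Umod, Aqp2 and Atp6v1g3 had 0 counts in all 3 brain libraries.

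Brain replicate 1 held less of most of these other cells than brain replicates 3 and 4. Oligodendrocyte markers summed to 371 CPM in brain replicate 1, 1203 in replicate 3 and 2798 in replicate 4, against 518 to 619 CPM in kidney. Microglial and macrophage markers summed to 54.9, 224 and 472 CPM in the same brain libraries, against 49.2 to 77.2 CPM in kidney. Choroid plexus and ependyma markers summed to 478, 501 and 2673 CPM there, against 48.3 to 65.9 CPM in kidney. Of the 5 of these tested, 2 were higher in brain, 0 were higher in kidney and 3 did not pass. Astrocyte markers were higher in kidney, at 1144 to 1285 CPM against 467 to 979 CPM, and 6 of 8 passed the test in that direction. Among those, the water channel Aqp4 was at 15.6, 15.2 and 35.1 CPM in brain and 55.4, 62.2, 50.8 and 49.0 CPM in kidney. On the total count scale these 8 markers summed to 1003 CPM in young kidney tubular cells and 890 CPM in young lymph node endothelial cells. The part of tubular RNA in their kidney values was not tested. A sort of pooled tissue cannot separate fewer cells of a type from less RNA per cell.

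**Figure D1:**
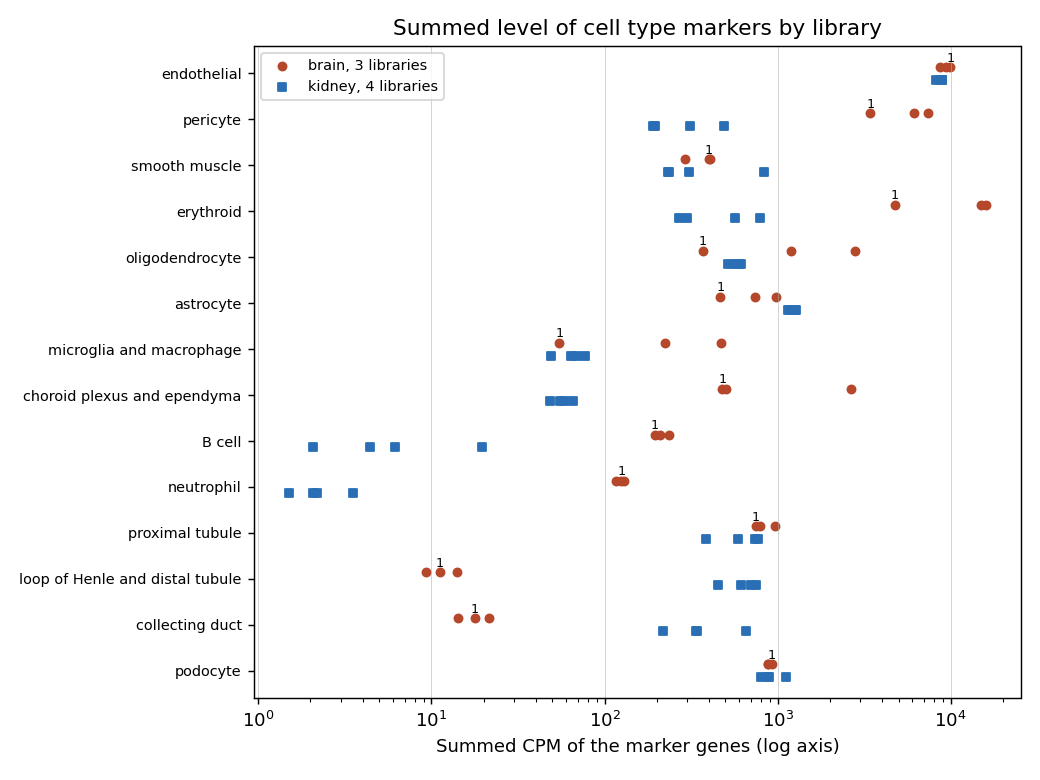
Summed CPM of fixed marker genes for 14 cell types (log axis) in each of the 7 young libraries; brain libraries are circles, with replicate 1 numbered, and kidney libraries are squares. Endothelial markers lie at 8225 to 9930 CPM in every library, while pericyte and erythroid markers are higher in brain and distal tubule and collecting duct markers are higher in kidney.

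Of 13059 genes tested, 5801 (44.4%) differed at an adjusted p under 0.05, with 2794 (21.4%) higher in brain and 3007 (23.0%) higher in kidney. A difference of 2-fold or more was reached by 1550 genes (11.9%) in brain and 2245 genes (17.2%) in kidney. The median log2 fold change over all genes tested was -0.01. These shares are the background for every count below, and the libraries of both tissues did not overlap for 47.2% of all genes. Upper quartile scaling moved all genes by -0.11 on the log2 scale, and 40.5% of the calls were then higher in brain, against 48.2% with the scaling used here.

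**Figure D2:**
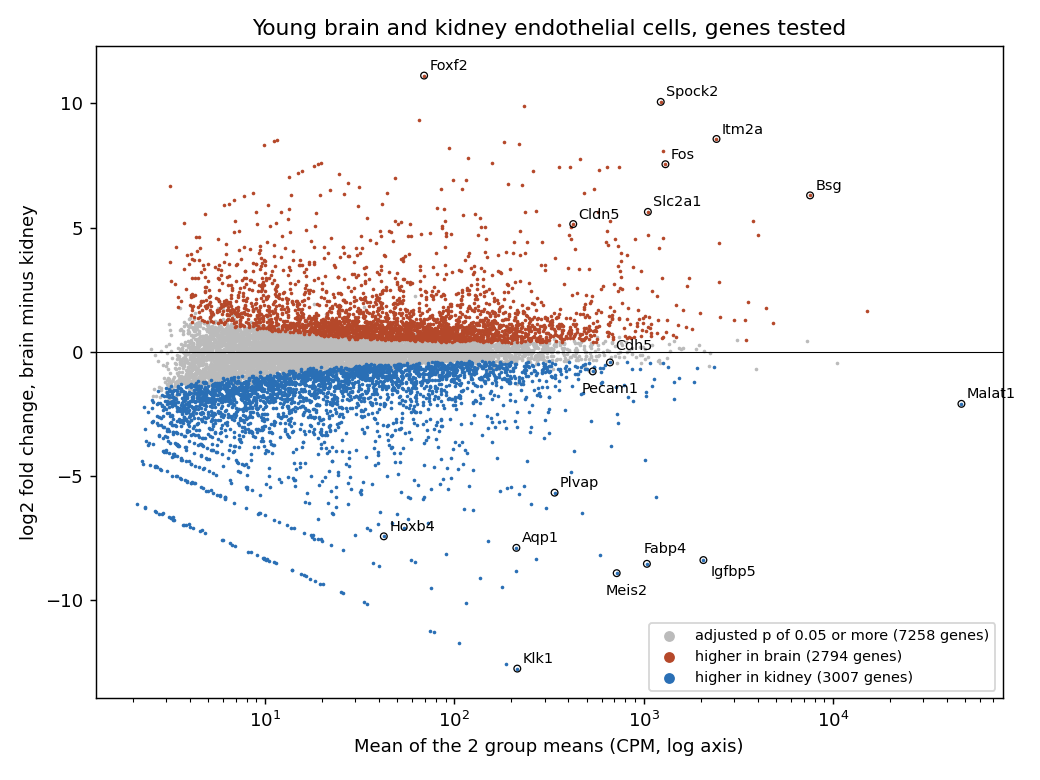
Log2 fold change, brain minus kidney, against the mean of both group means in CPM (log axis) for the 13059 genes tested; colours give the 2794 genes higher in brain and the 3007 higher in kidney. Labelled genes are ringed, and the diagonal bands at the lower left are genes with 0 or few brain counts, where the fitted value depends on the depth.

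Several pan-endothelial genes were also unequal. The VEGF receptor Kdr was at 648, 637 and 585 CPM in brain and 1570, 1632, 1480 and 1725 CPM in kidney, a log2 fold change of -1.36 ± 0.15 (adjusted p = 5.75e-06). The other VEGF receptor, Flt1, ran the other way, at 4606, 4316 and 3852 CPM in brain and 1436, 1811, 2054 and 1710 CPM in kidney (1.28 ± 0.17, adjusted p = 2.8e-05). Both genes showed no overlap between tissues. The sialomucin Emcn was higher in kidney (-1.97 ± 0.16) and the clotting carrier Vwf in brain (2.45 ± 0.20), as were the ETS factors Erg (1.28 ± 0.16) and Fli1 (1.66 ± 0.17). Of the 27 pan-endothelial genes 10 were higher in brain, 11 were higher in kidney and 6 did not pass, with a median of 0.04. The angiopoietin receptor Tek (0.17 ± 0.15, adjusted p = 0.393) and the secreted factor Egfl7 (0.20 ± 0.16, adjusted p = 0.348) were among the 6.

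Carriers that supply the brain were higher there almost throughout. Of 24 barrier solute carriers tested, 23 were higher in brain, 0 were higher in kidney and 1 did not pass, with a median log2 fold change of 5.03 against -0.01 over all genes. The exception was the creatine carrier Slc6a8, at 9.82, 17.1 and 17.4 CPM in brain and 9.66, 13.2, 13.9 and 9.79 CPM in kidney (0.33 ± 0.31, adjusted p = 0.417). The list was drawn up from known barrier genes, so its direction adds no independent evidence.

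The glucose transporter Slc2a1 (chr4:119108711-119137983, GRCm38) was at 2222, 2037 and 1929 CPM in brain and 38.7, 41.0, 43.3 and 42.8 CPM in kidney. Every brain library of Slc2a1 lay far above every kidney library, with a log2 fold change of 5.63 ± 0.17 (adjusted p = 1.21e-11). Slc16a1, which carries lactate and ketone bodies, was at 904, 1093 and 859 CPM in brain and 13.2, 10.98, 10.9 and 10.3 CPM in kidney (6.40 ± 0.19, adjusted p = 1.21e-11). Its accessory protein Bsg (chr10:79704491-79711969) was at 16672, 14572 and 13551 CPM in brain and 199, 174, 208 and 180 CPM in kidney (6.29 ± 0.20, adjusted p = 1.31e-11). Carrier and partner were both higher in brain, and their order among the 3 brain libraries differed.

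Amino acid carriers were also higher in brain. Slc7a5, the light chain that moves large neutral amino acids, was at 513, 484 and 312 CPM in brain and 0.879, 0, 2.26 and 1.03 CPM in kidney (8.38 ± 0.35). Slc3a2, the heavy chain it pairs with, was at 911, 861 and 837 CPM in brain and at 258, 242, 297 and 301 CPM in kidney (1.66 ± 0.15, adjusted p = 5.29e-07). Both chains were higher in brain, and the light chain was nearly absent from kidney. The cationic amino acid carrier Slc7a1 had a log2 fold change of 4.55 ± 0.16, and the glutamine carrier Slc38a5 had 1284 counts over the brain libraries and 4 over the kidney libraries (8.22 ± 0.35).

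Carriers of hormones, vitamins and lipids were also on the list. The organic anion carrier Slco1a4 (chr6:141805440-141856199) was at 2671, 2566 and 2289 CPM in brain and 6.15, 13.9, 9.79 and 6.70 CPM in kidney (8.09 ± 0.25, adjusted p = 1.21e-11). Slco1c1, which carries thyroid hormone, had a log2 fold change of 5.27 ± 0.19. The organic anion carrier Slc22a8 was at 528, 504 and 548 CPM in brain and 19.3, 5.86, 10.2 and 7.73 CPM in kidney (5.67 ± 0.26). Slc19a3, the thiamine carrier, had 900 counts over the brain libraries and 1 over the kidney libraries, a ratio corrected for depth of 921 (95% counting interval 165 to 36429). Mfsd2a, which carries lysophospholipids with omega fatty acids, was at 255, 282 and 268 CPM in brain and 12.3, 3.66, 8.28 and 8.76 CPM in kidney (5.03 ± 0.23, adjusted p = 6e-10). The fatty acid carrier Slc27a1 had the smallest difference among the 23, at 0.80 ± 0.24 (adjusted p = 0.0144), and 3 of the fits that left out 1 library lost it, with adjusted p up to 0.0605.

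Promoter sequences of carriers are shown because 23 of the 24 moved together and because beta-catenin acts through TCF/LEF factors. Motif letters were searched on both strands in the 250 bases before the start of each gene, in RefSeq promoters of GRCm38.p6. CTTTGA, a core of TCF/LEF sites, was found in 6 of the 18 carrier promoters with a sequence (33.3%), in 10.5% of the promoters of genes tested and in 3797 of all 27025 promoters. In the Wnt list it was found in 1 of 16 promoters (6.25%), that of Sp5. In genes higher in brain the share was 11.3%, and in genes higher in kidney it was 10.1%. It was 1 of 12 motifs searched, chosen with the results known, and no test was made. The 3 sequences below run 5′ to 3′ toward the gene on the minus strand, with the match in capitals (CTTTGA, or TCAAAG on the other strand).
Slc3a2, chr19:8713898-8714147: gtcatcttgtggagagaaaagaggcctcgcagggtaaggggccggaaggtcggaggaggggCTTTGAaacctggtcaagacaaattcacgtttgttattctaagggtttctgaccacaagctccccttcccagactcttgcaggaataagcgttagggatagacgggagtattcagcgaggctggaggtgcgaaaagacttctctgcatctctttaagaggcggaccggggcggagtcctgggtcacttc
Slc19a3, chr1:83038449-83038698: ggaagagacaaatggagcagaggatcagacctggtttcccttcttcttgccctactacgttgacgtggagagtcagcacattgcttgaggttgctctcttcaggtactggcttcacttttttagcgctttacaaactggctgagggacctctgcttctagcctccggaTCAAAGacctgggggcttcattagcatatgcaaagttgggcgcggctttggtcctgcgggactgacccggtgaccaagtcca
Mfsd2a, chr4:122961189-122961438: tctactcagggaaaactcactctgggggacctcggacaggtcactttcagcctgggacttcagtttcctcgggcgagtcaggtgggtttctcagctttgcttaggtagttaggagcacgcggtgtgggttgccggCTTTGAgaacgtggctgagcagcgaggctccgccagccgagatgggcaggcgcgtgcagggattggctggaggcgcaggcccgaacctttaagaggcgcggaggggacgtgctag
The other carriers with the motif were Slc35f2, Slc39a8 and Slc39a10, whose log2 fold changes were 5.25 ± 0.26, 5.25 ± 0.26 and 3.33 ± 0.16.

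Efflux pumps of the ABC family were divided. Abcb1a (chr5:8660077-8748575), P-glycoprotein, which returns drugs to the blood, was at 1483, 1553 and 1406 CPM in brain and 11.4, 7.32, 10.5 and 5.15 CPM in kidney (7.42 ± 0.23, adjusted p = 1.31e-11). Its near-identical neighbour Abcb1b was at 1.34, 1.96 and 6.42 CPM in brain and 3.51, 6.59, 6.40 and 6.70 CPM in kidney (-0.81 ± 0.54, adjusted p = 0.241), and without brain replicate 4 it passed as higher in kidney (-1.80, adjusted p = 0.0306). Reads that both copies share could move between them. Of the 9 members tested, Abcb1a, Abcg2 (2.24 ± 0.25), Abcc4 (1.98 ± 0.18) and Abcc6 were higher in brain. Abcc1 (-1.72 ± 0.30) and Abcc5 (-0.95 ± 0.16) were higher in kidney, and 3 did not pass.

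Tight junction genes differed by member rather than as a set, with 10 of 17 higher in brain, 4 higher in kidney and a median of 1.01. Claudin 5 (Cldn5, chr16:18776847-18778262), which seals the barrier against small molecules, was at 823, 840 and 815 CPM in brain and 17.6, 21.2, 30.1 and 22.2 CPM in kidney (5.14 ± 0.19, adjusted p = 6.1e-11). Occludin (Ocln) was at 1408, 1378 and 1023 CPM in brain and 8.79, 4.39, 8.66 and 6.70 CPM in kidney (7.44 ± 0.24, adjusted p = 1.42e-11). The scaffold Tjp1, the adhesion molecule Jam2, the cingulin relative Cgnl1 and the tricellular junction protein Lsr were also higher in brain, at 1.35 ± 0.16, 2.02 ± 0.16, 2.74 ± 0.15 and 4.04 ± 0.48. Another claudin ran the other way: Cldn15, known from intestine as a pore for cations, was at 0, 0.978 and 0.755 CPM in brain and 170, 203, 182 and 164 CPM in kidney (-8.13 ± 0.34, adjusted p = 2.09e-10). Jam3 (-1.60 ± 0.27) and Cgn (-2.58 ± 0.68) were higher in kidney, and F11r (-0.18 ± 0.15, adjusted p = 0.379) and Cldn12 (0.29 ± 0.44, adjusted p = 0.613) did not pass.

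Genes of the Wnt pathway and its targets differed by member. Of 22 tested, 13 were higher in brain, 3 were higher in kidney and 6 did not pass, with a median of 2.32. The transcription factor Lef1 (chr3:131110471-131224356) was at 739, 641 and 525 CPM in brain and 47.4, 35.1, 48.2 and 53.1 CPM in kidney (3.78 ± 0.19, adjusted p = 1.01e-09). Tcf7, of the same family, was at 71.9, 67.9 and 66.0 CPM in brain and 1.76, 5.86, 2.26 and 2.58 CPM in kidney (4.49 ± 0.29). Axin2, a target that feeds back on the pathway, was at 135, 168 and 161 CPM in brain and 24.6, 24.2, 12.4 and 23.2 CPM in kidney (2.92 ± 0.22, adjusted p = 8.62e-08). All 3 genes separated the tissues without overlap. Further feedback inhibitors were higher in brain: Apcdd1 at 6.71 ± 0.44, Nkd1 at 3.05 ± 0.20, Znrf3 at 2.73 ± 0.16, and Notum with 311 counts against 3, a ratio of 106 (95% counting interval 36.0 to 517). The target Tnfrsf19 was higher in brain too, at 3.99 ± 0.21.

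Receptors, the effector beta-catenin and a repressive factor did not share one direction. Adgra2 and Reck, which together present Wnt7 ligands at the endothelial surface, were at 3.48 ± 0.39 and 1.95 ± 0.24, both higher in brain. The receptor Fzd4 was at 294, 231 and 148 CPM in brain and 259, 253, 225 and 336 CPM in kidney (-0.26 ± 0.21, adjusted p = 0.347), and Ctnnb1, beta-catenin itself, was at 35.3, 23.0 and 39.2 CPM against 46.6, 44.7, 31.2 and 44.8 CPM (-0.34 ± 0.23, adjusted p = 0.251). Libraries of both tissues overlapped for these genes. Another receptor, Fzd6, was higher in brain (2.31 ± 0.18). The repressive family member Tcf7l1 (-1.59 ± 0.25) and Lgr5, a receptor for R-spondins (-2.14 ± 0.27), were higher in kidney. So was Lpar6 (-0.90 ± 0.32, adjusted p = 0.0325), whose libraries overlapped and whose call was lost without any 1 of 5 libraries (adjusted p 0.0537 to 0.107).

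**Figure D3:**
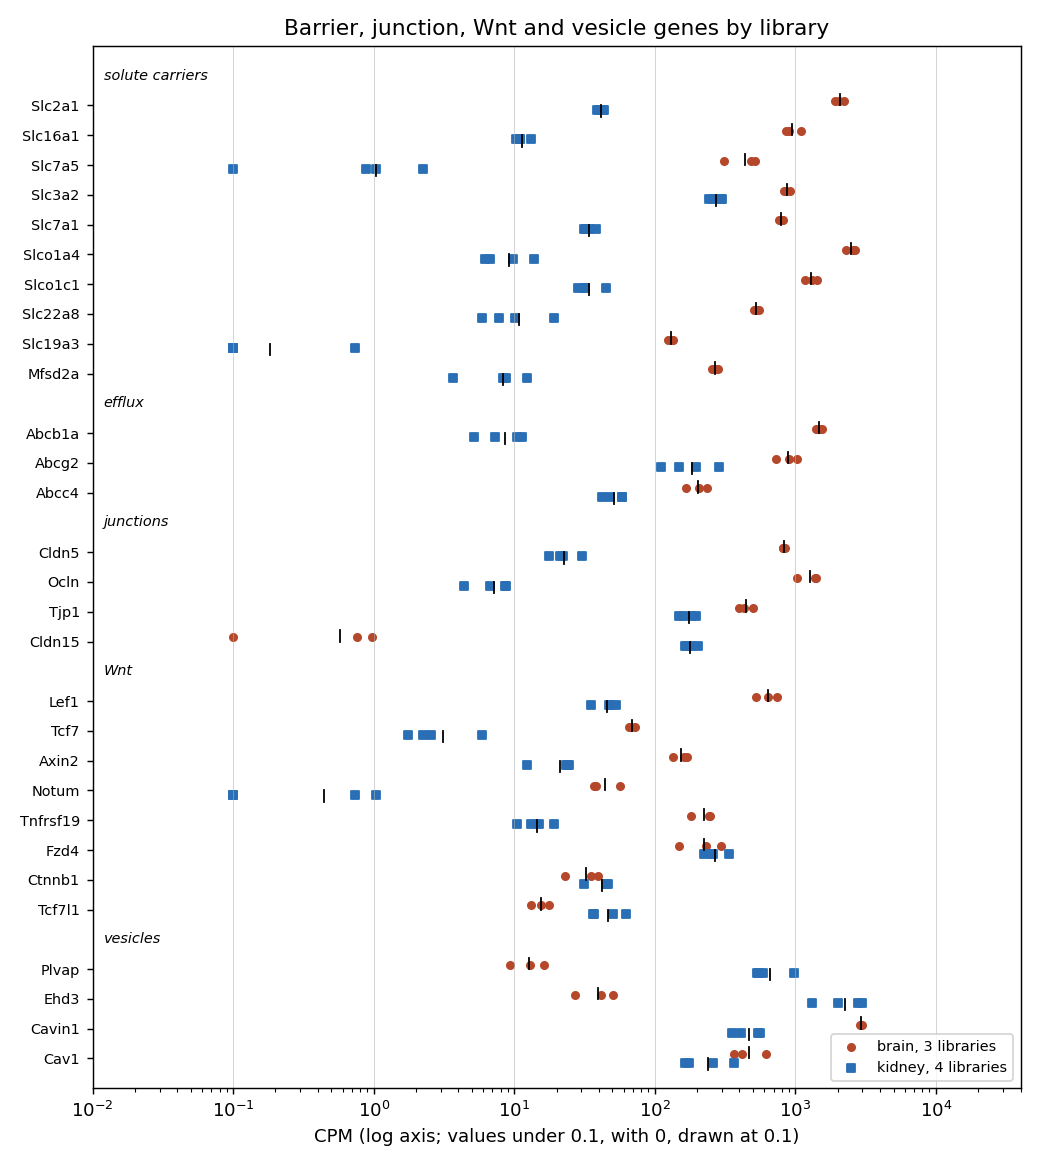
CPM (log axis, values under 0.1 drawn at 0.1) of barrier carriers, efflux pumps, junction, Wnt and vesicle genes in each young library; circles are the 3 brain libraries, squares the 4 kidney libraries and vertical ticks the group means. Every carrier shown lies higher in all brain libraries, Fzd4 and Ctnnb1 overlap, and Cldn15, Tcf7l1, Plvap and Ehd3 lie higher in all kidney libraries.

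Vesicle and fenestra genes were higher in kidney for 8 of 18 and in brain for 5, with a median of -0.37. Plvap (chr8:71497765-71511752), the protein of the diaphragms that span fenestrae, was at 12.9, 9.29 and 16.2 CPM in brain and 589, 534, 985 and 548 CPM in kidney (-5.67 ± 0.30, adjusted p = 1.81e-09). Ehd3 (chr17:73804134-73832094), a membrane remodelling ATPase known in glomerular endothelium, was at 27.2, 50.8 and 41.1 CPM in brain and 2995, 2004, 1317 and 2776 CPM in kidney (-5.84 ± 0.34, adjusted p = 5.24e-09). For both genes the lowest kidney library was far above the highest brain library. The related Ehd4 (-2.81 ± 0.20), the lipid phosphatases Plpp3 (-4.38 ± 0.26) and Plpp1 (-3.88 ± 0.28), and the VEGF coreceptor Nrp1 (-2.51 ± 0.18) were also higher in kidney. Caveolar coat genes were split: Cavin1 (2.66 ± 0.18), Cav1 (0.94 ± 0.26) and Cav2 (1.36 ± 0.17) were higher in brain, and Cavin3 (-1.66 ± 0.21) was higher in kidney.

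Genes listed for receptor-mediated uptake were higher in brain for 7 of 12 and in kidney for 2. The list is not limited to receptors. Tfrc, the transferrin receptor that brings in iron, was at 446, 486 and 454 CPM in brain and 12.3, 10.98, 6.78 and 8.76 CPM in kidney (5.63 ± 0.20, adjusted p = 5.49e-11). The growth factor receptor Igf1r (3.40 ± 0.18), the antibody receptor Fcgrt (3.27 ± 0.17) and the vitamin B12 receptor Cd320 (2.81 ± 0.21) went the same way. Cd36, which takes up fatty acids, did the opposite, at 7.14, 8.31 and 15.8 CPM in brain and 376, 407, 682 and 349 CPM in kidney (-5.41 ± 0.33).

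Cd36 was joined by other genes of fatty acid capture. Fabp4 (chr3:10204088-10208576), the fatty acid binding protein of capillaries, was at 4.02, 2.44 and 9.43 CPM in brain and 1654, 2620, 2079 and 1943 CPM in kidney (-8.54 ± 0.36, adjusted p = 2.45e-10). Gpihbp1, which anchors lipoprotein lipase on the capillary wall, was at 2.23, 0.489 and 5.66 CPM in brain and 193, 214, 327 and 257 CPM in kidney (-6.35 ± 0.39). The lipase gene Lpl was higher in kidney as well (-5.71 ± 0.30). These 4 genes were each higher in all kidney libraries. Of the 15 lipid genes tested 7 were higher in kidney and 4 in brain, among the latter the phospholipid transfer protein Pltp (2.92 ± 0.27) and the lipocalin Apod (2.14 ± 0.23).

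Hox genes, which record position along the body axis, were detected in kidney and hardly in brain. Of 39 in the table, 17 passed the filter on low counts, and all 17 were higher in kidney. They could pass that filter through the kidney libraries alone, so the count is a description. The median log2 fold change was -6.50, or -6.11 with the 2 genes at 0 in brain set to their bound. Hoxa9 (chr6:52223100-52231089) had 0 counts in all brain libraries and was at 44.8, 35.9, 66.3 and 54.1 CPM in kidney, at least 116-fold higher there, taking 3 counts over the brain libraries as the floor. Hoxb4 (chr11:96318267-96321638) had 3 counts in brain against 621 in kidney, a ratio of 202 (95% counting interval 68.9 to 983). Hoxa7 had 1 count against 385, a ratio of 376 (67.1 to 14893), and Hoxb7 had 1 against 328, a ratio of 320 (57.1 to 12694).

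Members of all 4 clusters were included. From the A cluster Hoxa5, Hoxa7, Hoxa9 and Hoxa10 were tested, from the B cluster Hoxb2 to Hoxb9, from the C cluster Hoxc8 and Hoxc9, and from the D cluster Hoxd4, Hoxd8 and Hoxd9. Hoxb2 was the member with most brain counts, 16 in all, at 1.79, 2.93 and 2.26 CPM in brain and 14.9, 14.6, 10.2 and 7.73 CPM in kidney (-2.30 ± 0.45, adjusted p = 0.000795). On the total count scale young kidney tubular cells held Hoxa9 at 134 CPM and Hoxb4 at 98.0 CPM, and lymph node endothelial cells held Hoxa9 at 3.13 CPM and Hoxb4 at 20.6 CPM. The part of tubular RNA in the kidney values of Hox genes was not tested.

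Meis factors, which bind DNA with Hox proteins, were higher in kidney as well. Meis2 (chr2:115863064-116065839) was at 5.36, 3.42 and 0.377 CPM in brain and 1261, 1330, 1480 and 1677 CPM in kidney (-8.91 ± 0.40, adjusted p = 3.81e-10), and young kidney tubular cells held it at 7.05 CPM on the total count scale. Meis1 (-3.98 ± 0.36) and the homeobox gene Meox1 (-3.18 ± 0.20) were lower in brain, and Gata5 had 1 count in brain against 256 in kidney, a ratio of 250 (95% counting interval 44.5 to 9916).

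A different group of transcription factors was higher in brain. Foxf2 (chr13:31625816-31631403), a forkhead factor needed in brain pericytes, was at 123, 155 and 138 CPM in brain and had 0 counts in all 4 kidney libraries, at least 328-fold higher in brain. Foxf1 (chr8:121084386-121088144), from the same family, was at 451, 472 and 482 CPM in brain and had 3 counts over the kidney libraries, a ratio of 1110 (95% counting interval 380 to 5387). Foxq1 was at 377, 356 and 415 CPM in brain and 1.76, 5.12, 4.89 and 1.55 CPM in kidney (6.76 ± 0.27, adjusted p = 1.31e-10). These forkhead genes were at 123, 451 and 377 CPM in brain replicate 1, the brain library with the lowest sum of pericyte markers. For Foxf2 and Foxf1 these were the lowest brain values. The part of pericyte RNA in the brain values of these genes was not tested. The zinc finger gene Zic2 (382, 357 and 356 CPM in brain, at most 1.51 CPM in kidney, 8.45 ± 0.25) and the forkhead gene Foxc1 (3.96 ± 0.19) went the same way. Over the 37 factors tested 13 were higher in brain, 13 higher in kidney and 11 did not pass, with a median of 0.07.

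**Figure D4:**
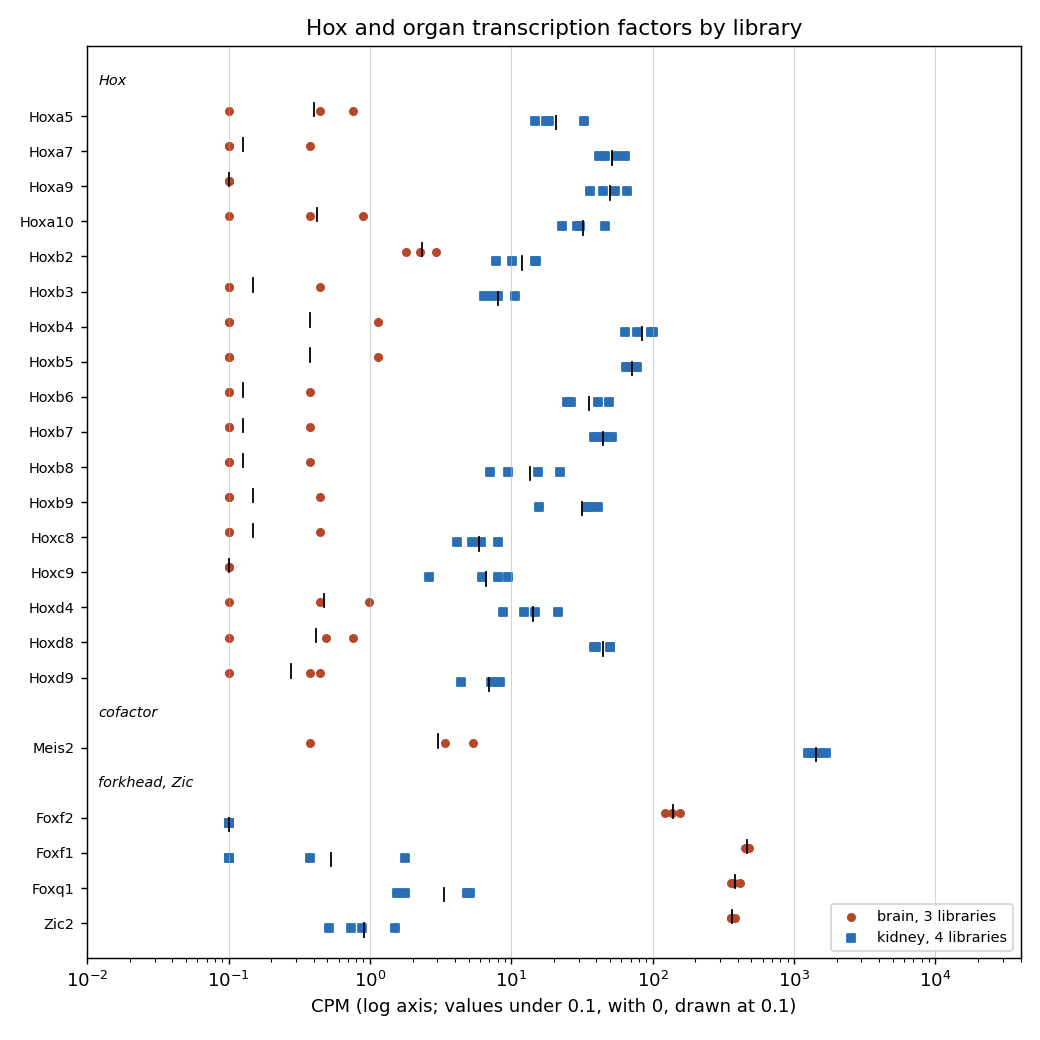
CPM (log axis, values under 0.1, with 0, drawn at 0.1) of the 17 Hox genes tested, the cofactor Meis2 and 4 forkhead and Zic genes in each young library; circles are brain, squares kidney and vertical ticks the group means. Hox genes and Meis2 lie higher in every kidney library, and Foxf2, Foxf1, Foxq1 and Zic2 lie higher in every brain library.

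Genes of water and solute movement separated member by member, with 8 of 22 higher in brain and 9 higher in kidney. Aqp1 (chr6:55336432-55348555), the water channel of the descending vasa recta and also of the proximal tubule, was at 1.34, 0.978 and 2.64 CPM in brain and 313, 420, 435 and 526 CPM in kidney (-7.90 ± 0.32, adjusted p = 1.5e-10). The urea transporter Slc14a1, known from the same vessels, was at 2.23, 3.91 and 3.40 CPM in brain and 127, 145, 161 and 154 CPM in kidney (-5.51 ± 0.24). Tubular cells held Aqp1 at 1122 CPM on the total count scale. Higher in brain were Aqp11 (2.33 ± 0.21) and the potassium channel subunit Kcnj8 (3.98 ± 0.45), a gene known from pericytes that was at 22.8 CPM in brain replicate 1 and at 65.5 and 90.6 CPM in replicates 3 and 4.

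Vasoactive signalling was evenly divided, with 9 of 24 higher in each tissue. Nos3, which makes nitric oxide in endothelium, was at 86.6, 80.2 and 74.7 CPM in brain and 12.3, 13.2, 5.65 and 6.19 CPM in kidney (3.20 ± 0.27, adjusted p = 2.64e-07). Ednrb, the endothelin receptor that clears endothelin, was at 29.9, 15.6 and 37.7 CPM in brain and 536, 745, 1029 and 864 CPM in kidney (-4.82 ± 0.31, adjusted p = 1.4e-08). The natriuretic peptide clearance receptor Npr3 (-5.55 ± 0.44), the adrenomedullin receptor partner Ramp3 (-2.84 ± 0.28) and the cyclooxygenase Ptgs1 (-3.69 ± 0.26) were higher in kidney, and the peptide Adm itself was higher in brain (2.44 ± 0.31).

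Haemostasis genes were higher in kidney for 11 of 19 and in brain for 2, with a median of -0.93. Coagulation factor F8, made by endothelium, was at 2.23, 0.489 and 1.51 CPM in brain and 248, 288, 247 and 411 CPM in kidney (-7.64 ± 0.35, adjusted p = 5.15e-10). The carrier of that factor, Vwf, was the opposite, at 158, 135 and 125 CPM in brain and 19.3, 30.0, 31.2 and 19.6 CPM in kidney (adjusted p = 2.16e-07). Pros1, protein S, was the other member higher in brain (0.999 ± 0.18). Tissue plasminogen activator, Plat, was at 638, 594 and 594 CPM in brain and 2661, 2560, 1529 and 2434 CPM in kidney (-1.91 ± 0.20), and the thrombin receptor F2r (-3.95 ± 0.28) and tissue factor F3 (-2.64 ± 0.26) went with it.

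Growth factor and matrix genes were split between the tissues. Igfbp5 (chr1:72857932-72874884), which binds insulin-like growth factors, was at 18.3, 11.2 and 7.55 CPM in brain and 4437, 3781, 4093 and 4172 CPM in kidney (-8.39 ± 0.30, adjusted p = 5.54e-11). Igfbp3 (-3.06 ± 0.29) and Vegfa (-3.86 ± 0.48) were higher in kidney, and Igfbp7 (2.40 ± 0.17) and the BMP receptor Acvrl1 (1.63 ± 0.17) in brain. In that list of 31, 9 were higher in brain and 13 in kidney. Fibronectin, Fn1, was at 755, 693 and 637 CPM in brain and 28.1, 27.1, 15.1 and 14.4 CPM in kidney (5.09 ± 0.23). The collagens Col15a1 (-5.00 ± 0.44) and Col4a4 (-3.39 ± 0.27) and the perlecan gene Hspg2 (-1.91 ± 0.17) were higher in kidney, and agrin, Agrn (1.85 ± 0.19), in brain, within a matrix list of 28 with 7 higher in brain and 12 in kidney. Of 7 podocyte markers 4 were higher in kidney and 1 in brain, with a median of -1.96. Their sums overlapped, at 877 to 926 CPM in brain and 800 to 1119 CPM in kidney. The part of podocyte or tubular RNA in the kidney values of growth factor and matrix genes was not tested.

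Arterial and venous genes gave mixed counts. Of 20 arterial genes 4 were higher in brain and 7 in kidney, and of 12 venous genes 6 were higher in brain and 4 in kidney. The arterial ligand Efnb2 was at 149, 114 and 117 CPM in brain and 554, 550, 689 and 791 CPM in kidney (-2.35 ± 0.19), and the connexin Gja5 was also higher in kidney (-2.94 ± 0.31). The Notch target Hey1 was higher in brain (1.47 ± 0.21). Among venous genes the scavenging chemokine receptor Ackr3 (3.46 ± 0.31) and the protease Ctsc (4.67 ± 0.24) were higher in brain.

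Enzymes of xenobiotic and redox metabolism were higher in brain for 9 of 20 and in kidney for 5. Maoa, which breaks down monoamines, was at 428, 395 and 360 CPM in brain and 21.1, 19.8, 18.4 and 14.9 CPM in kidney (4.42 ± 0.18, adjusted p = 1.39e-10), and the glutathione transferase Gsta4 was at 3.89 ± 0.27. Cyp4b1 (chr4:115624725-115647723), a cytochrome P450, had 0 counts in all brain libraries and was at 521, 378, 260 and 343 CPM in kidney, at least 868-fold higher. Tubular cells held it at 27.3 CPM on the total count scale. The secreted peroxidase Gpx3, at 1421, 498, 1228 and 1518 CPM in kidney against 1.79, 2.93 and 6.79 CPM in brain (-8.17 ± 0.49), was at 5348 CPM in tubular cells.

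Immune genes differed in single members more than as lists. Cxcl12 (chr6:117168535-117181367), a chemokine that retains leukocytes, was at 2652, 2258 and 2399 CPM in brain and 69.4, 80.5, 146 and 105 CPM in kidney (4.58 ± 0.24, adjusted p = 1.52e-09). The receptor Il6ra (4.47 ± 0.25) was higher in brain and the cytokine Csf1 (-1.83 ± 0.20) in kidney, within a list of 20 with 5 higher in brain and 7 in kidney. Interferon-stimulated genes had 7 of 28 higher in brain, 7 higher in kidney and 14 that did not pass. The antiviral gene Rsad2 was at 207, 159 and 155 CPM in brain and 1288, 1312, 1297 and 1246 CPM in kidney (-2.89 ± 0.17, adjusted p = 6.53e-09), and Ifi44 was also higher in kidney (-3.01 ± 0.18), while Ifitm1 (3.60 ± 0.42) and Gbp3 (1.15 ± 0.18) were higher in brain. Class I presentation genes had 2 of 15 higher in brain and 5 in kidney, among them H2-Q7 (-2.26 ± 0.30), one of several near-identical class I genes whose reads may be shared. Class II genes had 1 of 6 higher in brain, the protease Ctss, which was at 15.6, 70.9 and 138 CPM there beside the microglial sums given above, and 3 higher in kidney, among them H2-Ab1 (-1.78 ± 0.31). The count of class II calls in either direction, 4, was 2 without brain replicate 1 and 2 without kidney replicate 3.

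Immediate-early and heat shock genes, which cells induce within minutes of stimulation or handling, were higher in brain for 21 of 22 and in kidney for 0, with a median of 2.99. Fos (chr12:85473890-85477273) was at 1497, 2311 and 3962 CPM in brain and 15.8, 19.8, 11.7 and 9.79 CPM in kidney (7.55 ± 0.35, adjusted p = 6.14e-10). Fosb was at 496, 673 and 954 CPM in brain and 5.27, 8.05, 3.01 and 1.55 CPM in kidney (7.43 ± 0.35). Brain replicate 4 was the highest for both genes. Junb (4.69 ± 0.23), Atf3 (5.37 ± 0.28), Btg2 (3.00 ± 0.16) and the phosphatase Dusp1 (2.97 ± 0.21) followed. The chaperone Hsph1 did not pass (-0.53 ± 0.28, adjusted p = 0.145), and without kidney replicate 3 it passed as higher in kidney (-0.78, adjusted p = 0.0191). The isolation of brain and kidney cells is not described separately in the sources used here. Tissue and handling therefore cannot be told apart, for these genes or for any other gene tested.

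Sequences of 2 of these promoters are printed because the members moved together and because CREB and ATF factors are known to act on them. TGACG, the core of their sites, was found on either strand in 9 of the 19 promoters of the list with a sequence (47.4%), in 27.4% of the promoters of genes tested and in 17.9% of all promoters. In genes higher in brain the share was 28.7%, and in genes higher in kidney it was 21.4%. The palindrome TGACGTCA, which holds that core on both strands, was in 2 of the 19 (10.5%), Dusp1 and Btg2. It was in 2.81% of the promoters of genes tested and in 1.62% of all. Both were among the 12 motifs searched, chosen with the results known, and no test was made. Capitals mark TGACG or its complement CGTCA, and both sequences run 5′ to 3′ toward the gene, Fos on the plus strand and Dusp1 on the minus strand.
Fos, chr12:85473640-85473889: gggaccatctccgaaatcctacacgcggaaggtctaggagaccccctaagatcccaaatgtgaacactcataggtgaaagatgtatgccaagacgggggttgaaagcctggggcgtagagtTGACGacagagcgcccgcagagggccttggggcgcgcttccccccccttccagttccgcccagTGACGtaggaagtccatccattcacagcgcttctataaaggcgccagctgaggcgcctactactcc
Dusp1, chr17:26508473-26508722: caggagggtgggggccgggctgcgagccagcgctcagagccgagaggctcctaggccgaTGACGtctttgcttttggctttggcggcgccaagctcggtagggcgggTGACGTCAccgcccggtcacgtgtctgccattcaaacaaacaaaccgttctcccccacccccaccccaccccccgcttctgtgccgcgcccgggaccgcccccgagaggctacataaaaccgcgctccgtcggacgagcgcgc

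Genes of energy supply and of division were compared as 3 lists. Of 34 nuclear oxidative phosphorylation genes 13 were higher in brain, among them Atp5j (1.41 ± 0.15) and Cox5a (1.90 ± 0.25), and 1 was higher in kidney, Cox7b (-0.58 ± 0.18, adjusted p = 0.0167), a call lost without brain replicate 1 or 3 (adjusted p 0.0510 and 0.116) and with the replicate number as a block (adjusted p = 0.0749). Of 15 glycolysis genes 6 were higher in brain, with Pkm at 1.43 ± 0.16, and 3 in kidney, with Ldhb at -1.81 ± 0.27. Of 22 proliferation genes 12 were higher in brain and 2 in kidney, with a median of 1.09. Stmn1, a tubulin-binding protein, was at 87.9, 81.6 and 90.2 CPM in brain and 13.2, 13.2, 12.8 and 10.8 CPM in kidney (2.80 ± 0.19), and the nucleotide reductase subunit Rrm2 was at 1.73 ± 0.34, while the replication helicase gene Mcm3 was higher in kidney (-1.29 ± 0.22).

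**Figure D5:**
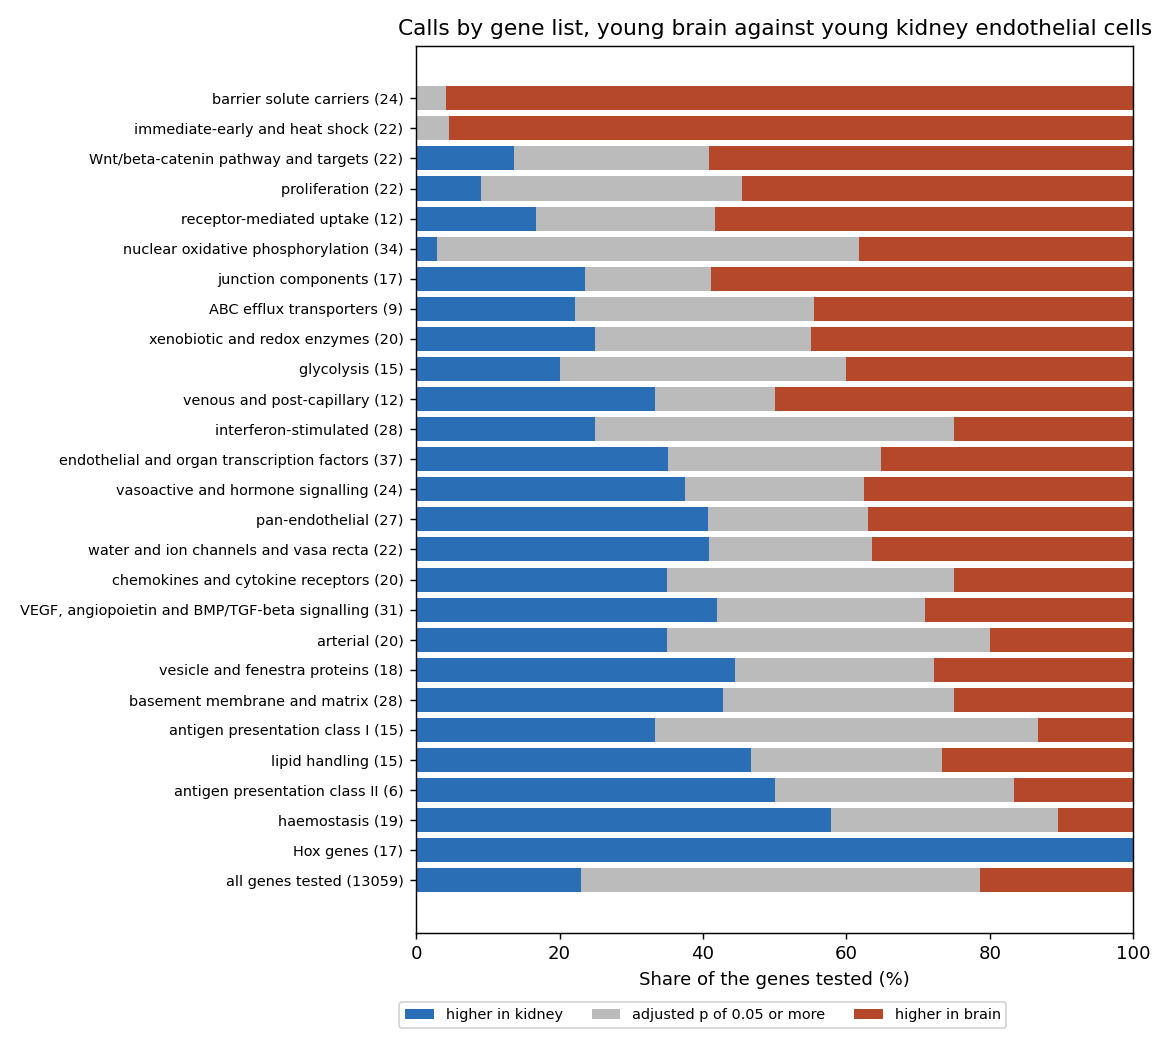
Share of the tested genes of each list (number tested in brackets) that were higher in kidney, did not pass, or were higher in brain, at an adjusted p under 0.05; the lowest bar gives all 13059 genes tested. Barrier solute carriers (23 of 24) and immediate-early and heat shock genes (21 of 22) are the lists with the highest share in brain, and Hox genes (17 of 17) have the highest share in kidney.

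Genes chosen by size alone were of different kinds at the 2 ends. Toward brain the 15 largest log2 fold changes among genes with at least 20 CPM and no overlap were those of Foxf2, Spock2, Foxf1, Slc19a3, Itm2a, Igll1, Zic2, Slc7a5, Slc38a5, Slco1a4, Ndnf, Sema3c, Vtn, Fos and Srarp. Spock2 (chr10:60106219-60135198), a matrix proteoglycan, was at 2564, 2405 and 2406 CPM in brain and 2.64, 2.20, 3.01 and 1.03 CPM in kidney (10.06 ± 0.26, adjusted p = 5.62e-12). Itm2a (chrX:107397099-107403376), a membrane protein, was at 5436, 4716 and 4348 CPM in brain and 8.79, 14.6, 13.2 and 13.4 CPM in kidney (8.57 ± 0.23). Vtn, vitronectin, was at 106 CPM in brain replicate 1 and 446 and 395 CPM in replicates 3 and 4, the same order of libraries as the pericyte markers. Igll1, a part of the receptor of early B cells, was at 20.5, 25.9 and 23.0 CPM in brain and had 0 counts in kidney, beside the B cell sums given above. Of the 15, 0 were at a higher level in young kidney tubular cells than in brain endothelium.

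Toward kidney the 15 were Klk1, Cyp4b1, Aqp2, Umod, S100g, Wfdc15b, Tmem52b, Acsm2, Sult1d1, Hoxa9, Fxyd2, Cdh16, Defb1, Atp6v1g3 and Spp2. Klk1 (chr7:44225360-44229618), a kallikrein of distal tubules with close relatives in its gene cluster, was at 400, 354, 719 and 247 CPM in kidney and had 0 counts in brain, at least 994-fold higher. Umod and Aqp2, which define the thick ascending limb and the collecting duct, were at 179, 201, 163 and 77.8 CPM and at 182, 222, 361 and 83.5 CPM in kidney. Of the 15, 14 were at a higher level in young kidney tubular cells than in kidney endothelium, on the total count scale, and the exception was Cyp4b1. Klk1 was at 3730 CPM there. Over all genes higher in kidney 877 of 3007 (29.2%) were at a higher level in tubular cells, and over all genes tested the share was 47.0%. Over genes higher in brain 291 of 2794 (10.4%) were at a higher level in neurons, against 39.0% of all genes tested. The neuron level came from 2 young libraries, whose fibroblast markers summed to 2183 CPM beside neuron markers at 11721 CPM on the total count scale. Neurons held 902 of the 3007 genes higher in kidney at a higher level (30.0%), against 32.0% of all genes tested. Tubular cells held 593 of the 2794 genes higher in brain at a higher level (21.2%), against 54.7%. Genes chosen as high in a tissue are exceeded less often by any reference, so these shares cannot measure RNA from other cells. Counting only genes that neither tubular cells nor neurons held at a higher level left 1983 genes higher in brain and 1541 higher in kidney.

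The remaining genes with the highest levels were Abhd2 (8219, 7648 and 6272 CPM in brain, 225, 194, 179 and 173 CPM in kidney, 5.26 ± 0.19), a hydrolase, and Hbb-bs and Rgs5. Hbb-bs, a beta globin with a near-identical copy, was at 3120 CPM in brain replicate 1 and 10349 and 9733 CPM in replicates 3 and 4. Rgs5, a pericyte gene, was at 3063, 6166 and 5087 CPM in the same libraries. For the called members higher in brain, the level in brain replicate 1 was divided by the mean of replicates 3 and 4. The ratio had a median of 1.10 (range 0.791 to 1.53) for solute carriers, 1.14 (0.707 to 1.77) for junction genes and 0.93 (0.742 to 1.27) for Wnt genes. It had a median of 0.38 (0.253 to 0.938) for pericyte, 0.30 (0.278 to 0.339) for erythroid and 0.16 (0.129 to 0.195) for oligodendrocyte markers. Other markers were nearer to carriers, with a median of 1.08 (0.962 to 1.27) for neutrophil and 0.85 (0.669 to 1.18) for B cell markers. Immediate-early and heat shock genes had a median of 0.82 (0.289 to 1.52). The ratio therefore does not tell endothelial genes from genes of all other cells. The part of RNA from these other cells in the brain values was not tested.

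Last, the difference was set beside the one in mice aged 22 to 24 months, which shares no library with it. There 5140 of 13133 genes (39.1%) differed between the tissues. Of the 5500 young calls tested in both ages 3795 (69.0%) were called in the same direction in old mice, which is 77.0% of the 4927 old calls, and 21 were called in opposite directions. Across the 12466 genes tested in both, which are not independent, Pearson's r of the log2 fold changes was 0.913 and Spearman's rho 0.832. A test of the change itself, the tissue by age interaction, called 103 of 14352 genes (0.718%). Brain minus kidney was higher in old mice for 29 (0.202%) and lower for 74 (0.516%). The count of 103 ran from 14 without old kidney replicate 2 to 219 without young kidney replicate 1, so it rests on single libraries.

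Members of the lists among the 103 were named after their values were seen. Slco1a4 was at 2058, 1795, 1917 and 2176 CPM in the old brain libraries (numbered 3, 4, 1 and 2) and 22.8, 21.2 and 36.3 CPM in the old kidney libraries (numbered 3, 1 and 2), and its difference was smaller in old mice by -1.88 (adjusted p = 0.00595). The difference of Cxcl12 was larger, by 2.25 (adjusted p = 0.00145), with 2992, 3034, 3185 and 2346 CPM in old brain and 22.8, 28.6 and 26.6 CPM in old kidney. Cd74, the class II invariant chain, was at 36.1, 38.6 and 48.3 CPM in young brain and 24.6, 31.5, 41.4 and 43.3 CPM in young kidney, and at 43.5, 58.0, 37.3 and 60.6 CPM in old brain and 172, 321 and 363 CPM in old kidney. Its young difference did not pass (0.20 ± 0.22, adjusted p = 0.504), and the change with age was -2.68 (adjusted p = 0.00117). Of the Wnt list, Tspan12, a partner of Fzd4, changed by -0.99 (adjusted p = 0.0331), and of the vesicle list, Nostrin, which regulates nitric oxide synthase traffic, changed by 1.10 (adjusted p = 0.0232). The call of Tspan12 was lost in 10 of 17 alternatives (adjusted p up to 0.107) and that of Nostrin in 6 of 17 (adjusted p up to 0.108).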

How the data were processed

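Poly(A) RNA of sorted cells was sequenced from 3' ends, with a sample index and a molecular identifier added at priming, per the labels' protocols. The sources used here do not say if copies of a molecule were collapsed by identifier. STAR, featureCounts 2.0.1, GRCm38.p6 and mm10 are named in the submitters' processing notes. The deposited values are raw whole-number gene counts in a table of 55484 genes; 37 mitochondrial genes have 0 counts in every library.

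Libraries were grouped by title. Young brain was tested against young kidney by edgeR's quasi-likelihood test (version 4.0.16 in R 4.3.3, libraries scaled by TMM) after filtering low genes (filterByExpr, min.count 10, min.total.count 15), on the 7 libraries alone, with Benjamini-Hochberg adjustment over all genes tested and a threshold of 0.05. The old libraries were tested the same way, and the interaction in a fit of all 4 groups. CPM use TMM library sizes; levels in other cell types are scaled by total counts only. Groups at 0 counts were given a floor of 3 counts over the group, and groups of 1 to 3 counts a ratio with an exact 95% interval, which covers counting error only. No library pair was identical (0 of 18), and chi-square values between replicates were at least 3.19 per degree of freedom. Coordinates are from GENCODE M21 (GRCm38), and promoters from RefSeq; the promoter windows of Slc3a2 and Dusp1 lie inside longer gene models of GENCODE.

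Genes were named by size (the 15 highest and 15 lowest log2 fold changes whose higher group averaged 20 CPM or more and whose libraries did not overlap, without Xist, Tsix, chromosome Y genes, unnamed models, pseudogenes, antisense genes and receptor segments), by level (5 per direction past a log2 fold change of 2 in size), as cell type markers, and by list (up to 5 per direction with the lowest adjusted p, and any member of the carrier, efflux, junction, Wnt, vesicle and Hox lists). Dusp1, Hsph1 and the genes of the interaction were added after their values were seen. The comparison, lists and markers were chosen with earlier results of these data known. The fits were tested on simulated counts. Alternatives were RLE and upper quartile scaling, no filter, DESeq2 1.42.0, a replicate block, a joint fit with the old libraries, thinned counts, a 2-fold minimum and leaving out each library.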

Additional observations from a re-analysis of the deposited data

Results flagged for a closer look

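In single libraries, 13 of 210 named genes had a young kidney library far from the other 3, and 1 of 15 had such an old brain library; chance alone gives about 1 in 20. In kidney replicate 3, Plvap was at 984.7 CPM, Acta2, the actin of smooth muscle, at 375 CPM, Tmem52b at 369.7 CPM, Ldhb at 239 CPM, Wfdc15b at 119.7 CPM, Defb1 at 76.0 CPM and Atp6v1g3 at 73.8 CPM, each the highest kidney value. In the same library Ctnnb1 was at 31.2 CPM, Axin2 at 12.4 CPM and Cox5a at 7.15 CPM, each the lowest. Abcb1b was lowest in kidney replicate 1, at 3.51 CPM, Stmn1 was lowest in kidney replicate 4, at 10.8 CPM, and Meis1 was lowest in kidney replicate 2, at 28.55 CPM. Aplnr, the apelin receptor, was highest in old brain replicate 2, at 5.40 CPM.

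The tissue difference changed with age by edgeR's interaction test for 15 named genes, given as old minus young on the log2 scale. Brain minus kidney was lower in old mice for Aplnr (-3.34), Gpihbp1 (-3.24), Cd74 (-2.68), Serpine2 (-2.45), Cxcl16 (-2.44), Cd36 (-2.20), Slco1a4 (-1.88), Cat (-1.26), Flt4 (-1.06), Tspan12 (-0.99) and Thbd (-0.95). Brain minus kidney was higher for Cxcl12 (2.25), Bmx (1.95), Slc14a1 (1.94) and Nostrin (1.105). Lower and higher refer to the signed value and not to its size. Gpihbp1, for example, went from -6.35 in young to -9.62 in old mice, and Slc14a1 from -5.51 to -3.59. The calls of Cxcl12, Cd74, Aplnr and Serpine2 held in 17 of 17 alternatives, and that of Slco1a4 in 16 of 17, with adjusted p up to 0.0631. Those of Thbd, Cxcl16 and Cat held in 15 of 17, Cd36 in 13, Nostrin in 11, Bmx in 10, Slc14a1 in 9, Gpihbp1 and Flt4 in 8 and Tspan12 in 7, with adjusted p up to 0.383 for Gpihbp1.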

How the results depend on the processing

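Counts of young calls were within 1.5 times of the reported ones under RLE and upper quartile scaling, no filter, DESeq2, a joint fit, thinned counts and each left-out library. Genes higher in brain ran from 2152 (thinned counts) to 3220 (joint fit). Genes higher in kidney ran from 2340 (thinned counts) to 3422 (upper quartile scaling). Over left-out libraries alone the counts were 2305 to 2688 higher in brain and 2493 to 2890 higher in kidney. The exception to the factor of 1.5 was the removal of genes at a higher level in tubular cells or neurons. That alternative, chosen after seeing the data, left 1541 higher in kidney. At a 2-fold minimum the calls in either direction fell to 10 pan-endothelial, 7 arterial, 5 venous, 9 xenobiotic, 2 class I, 5 interferon, 4 oxidative phosphorylation and 5 glycolysis genes. Class II calls ran from 2 to 5 over left-out libraries. Interaction calls were 309 with no filter, 295 with DESeq2 and 14 to 219 over left-out libraries. Correlations by shared replicate number were -0.0145, -0.0365 and -0.0566 for the young libraries. They cannot tell whether a shared number marks shared animals, which the sources do not say. The replicate block gave 2379 calls higher in brain and 2570 in kidney. Differences that missed the threshold and lay near 0 changed sign for Thbd (-0.0527 with upper quartile scaling, -0.0235 thinned), Cd74 (-0.0079 thinned), Cavin2 (0.0522 with no filter, 0.0156 with the replicate block) and Ptprb (0.0256 and 0.0054 likewise). Over left-out libraries Thbd ran from -0.0095 to 0.0943, Acta2 from -0.127 to 1.6291 (higher in brain, adjusted p = 0.0014, without kidney replicate 3), Cavin2 from -0.1336 to 0.06, Ptprb from -0.1709 to 0.0391 and Bmx from -0.0813 to 0.5298. The causes were not tested.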
